A study of Sus scrofa with 4 samples.

Results

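PKHD1, LRP2 and RAB17 are 3 of the 30282 genes counted by single-cell RNA sequencing in pig pancreas and in porcine pancreatic ductal organoids (PPDO). They were chosen because they were high in primary duct cells and close to absent in PPDO, and for each gene all features of the annotation, the transcript itself and its extension at the 3′ end, were added up. The gap between duct and PPDO chose the genes, so it is described here and was not tested.

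PPDO are epithelial cultures that grow in 3 dimensions from hand-picked pancreatic ducts in a basement membrane matrix, in a medium with WNT3a, R-spondin-1, noggin, EGF, FGF10 and the TGF-beta receptor inhibitor A83-01. All pigs were of German landrace background. The 2 PPDO libraries came from 2 lines at passages 4 and 7, described in the study as 1 late postnatal and 1 adult, without a label for which library is which line. The postnatal days that the methods use to name the lines both fall within the study's late postnatal range, so the adult stage is uncertain. Cultures of earlier passages were not analysed here, and the levels given for PPDO are those of passaged lines. The 2 primary pancreas libraries came from late postnatal pigs processed on different days, 1 wild type and 1 with an INS-eGFP transgene (eGFP under the pig insulin promoter). By the study's methods the library taken as the first was enriched for ducts by hand, and the second pooled sorted DBA+ duct cells, INS-eGFP cells and whole suspension, so the make-up of a primary library was set by its preparation. Each group had 2 libraries, and culture, animal age and preparation cannot be told apart between the groups.

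PKHD1 encodes fibrocystin, a very long membrane protein of the primary cilium and apical domain of tubular epithelia, and its loss causes recessive polycystic kidney disease with malformed bile ducts. LRP2 encodes megalin, a giant endocytic receptor of the LDL receptor family that stands on the apical surface of absorptive epithelia and takes up filtered proteins together with cubilin. RAB17 is a small GTPase of epithelial cells that directs traffic through apical recycling endosomes and transcytosis. The pancreatic duct itself carries the secreted fluid and modifies it on the way.

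In the RefSeq gene table of Sscrofa11.1, PKHD1 (ENSSSCG00000001746) spans positions 45447354 to 45925141 of chromosome 7, and a pseudogene lies within that span. LRP2 (ENSSSCG00000040746) lies on chromosome 15 from 75565299 to 75754604, with no other gene within 10 kb. RAB17 (ENSSSCG00000016328) lies on the same chromosome from 137232781 to 137255884, and PRLH is within 10 kb of it. The genes thus differ in span from 477788 bases for PKHD1 to 23104 bases for RAB17. Levels below are unique molecular identifiers (UMIs, counted molecules) scaled by all UMIs of the same cells and given as CPM, where 10000 CPM are 1% of those UMIs. The libraries read 3′ ends, and CPM was not divided by transcript length. Whether introns were counted is not given, so a dependence of the counts on gene span was not tested. Capture can also differ between genes, so levels are compared between cells rather than between genes.

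The libraries held 9853 and 8071 barcodes (PPDO 1 and 2) and 6999 and 7657 barcodes (primary pancreas 1 and 2), and 10 to 23 barcodes were shared by any pair of libraries. After filtering, 8885, 7337, 5671 and 4261 cells stayed. Primary cells were clustered and named from marker lists that did not hold the 3 genes, which left 2235 ductal-like cells in primary pancreas 1 and 1207 in primary pancreas 2. Different clusters hold most of this class in each library. KRT19 and MUC1 were not matched, and the other 7 ductal markers summed to 25476 and 29536 CPM in ductal-like cells against 1176 and 1086 CPM in PPDO. The bicarbonate transporter SLC4A4 alone gave 22233 and 25842 CPM of the sums in ductal-like cells and 418 and 327 CPM of those in PPDO, so the gap of the sums is mostly that of 1 gene. PPDO kept KRT7 at 389 and 384 CPM (572 and 599 in ductal-like cells) and BMPR1A at 237 and 240 CPM (233 and 274). BMPR1A was not particular to duct. In primary pancreas 1 it had 235, 260 and 214 CPM in endothelial-like, Schwann-like and stellate-like cells, and 24.5 to 117 CPM in immune-like, acinar-like and endocrine-like cells. The other markers were lower in PPDO. SOX9 stood at 3.30 and 1.44 CPM against 323 and 352, and CFTR at 1.04 and 0.636 CPM against 943 and 794. SCTR had 1.14 and 0.793 CPM against 577 and 962, and ANXA4 127 and 132 CPM against 595 and 714. Basal markers such as KRT5 were high in PPDO, where the 6 matched genes of that list summed to 8844 and 11512 CPM against 161 and 117 CPM in ductal-like cells.

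PKHD1, the ciliary protein gene, was abundant in duct cells and almost absent from PPDO. In primary ductal-like cells PKHD1 stood at 2397 CPM in primary pancreas 1 and 2566 CPM in primary pancreas 2. In PPDO it stood at 0.585 and 0.549 CPM, from 176 and 144 UMIs in all. The ductal-like level was 2481 ± 120.0 CPM (SD, n = 2), and that of PPDO 0.567 ± 0.0254 CPM (SD, n = 2). The groups did not overlap, as the choice of the gene implies, and the libraries of a group differed far less than the groups. Pooled over libraries, duct exceeded PPDO 4329-fold, with a 95% interval of 3880 to 4846 for counting error only.

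LRP2, the endocytic receptor, was also high in duct cells and close to absent from PPDO. Ductal-like cells had 395 and 526 CPM, or 460 ± 92.8 CPM (SD, n = 2). PPDO had 0.236 and 0.210 CPM, from 71 and 55 UMIs, and the pooled ratio was 1980-fold (1663 to 2378). Without the 3′ extension feature, the mean log2 difference between PPDO and duct moved from −11.00 to −11.71, because the 2 groups drew their LRP2 UMIs from different features. Of the LRP2 UMIs of PPDO, 34 of 71 (47.9%, 95% interval 35.9% to 60.1%) and 16 of 55 (29.1%, 17.6% to 42.9%) lay in the extension, against 0.391% and 0.0598% in ductal-like cells. For PKHD1 the extension held 0.568% and 0% of UMIs in PPDO and 0.945% in both ductal-like sets, so this shift was seen for LRP2 and not for PKHD1. Whether introns were counted is not given in the sources used here, and the source of the extension reads in PPDO was not tested.

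RAB17, the trafficking GTPase, rested on the fewest molecules in PPDO. Ductal-like cells had 168 and 226 CPM, or 197 ± 41.6 CPM (SD, n = 2). Each PPDO library held 7 RAB17 UMIs among 300990260 and 262372786 UMIs, which is 0.0233 and 0.0267 CPM. The pooled ratio was 7618-fold, and its counting interval of 4539 to 13938 was the widest of the 3 because so few PPDO molecules stand behind it.

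**Figure D1:**
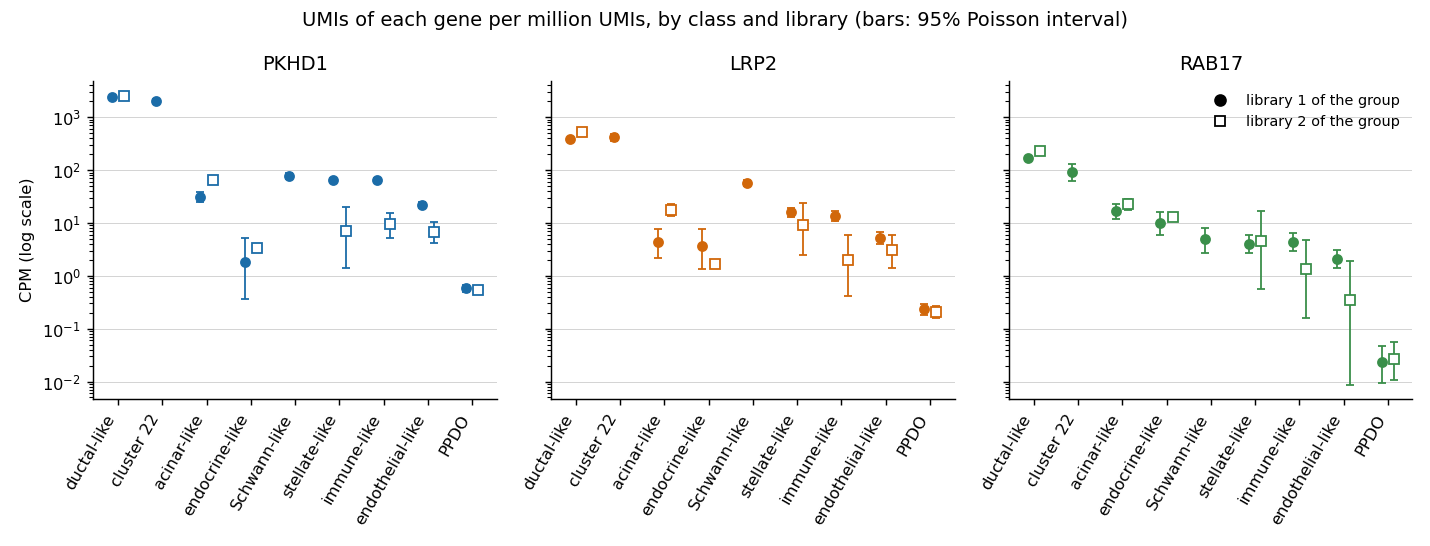
Level of each gene in CPM (log axis) by cell class, with 1 point per library and bars for the 95% Poisson interval. Filled circles are library 1 and open squares library 2 of each group, and classes with under 20 cells in a library are not drawn. For all 3 genes the ductal-like points are the highest of the named classes and the PPDO points the lowest, with PKHD1 at 2397 and 2566 CPM in ductal-like cells and 0.585 and 0.549 CPM in PPDO.

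Relative to the level of each gene, the primary libraries differed from each other more for LRP2 and RAB17 than for PKHD1. Primary pancreas 2 exceeded primary pancreas 1 in all 3 genes, and the counting intervals of the libraries did not overlap for any of them. For LRP2 they ran from 389 to 400 CPM and from 517 to 535 CPM, and for PKHD1 from 2382 to 2411 CPM and from 2547 to 2586 CPM. Each primary library is 1 animal and 1 preparation, so no test between them was possible.

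Shares of cells were compared at matched depth. Cells were thinned to 3000 UMIs each, since PPDO cells were deeper (median 34176 and 34459 UMIs) than ductal-like cells (17598 and 20469), which set aside 61 and 10 PPDO cells and 192 and 0 ductal-like cells as too shallow. Of ductal-like cells, 98.4% and 98.2% held a PKHD1 UMI, against 0.17% and 0.15% of PPDO cells. LRP2 was detected in 61.5% and 71.6% of the former and in 0.147% and 0.0955% of PPDO cells. RAB17 was detected in 37.1% and 49.3% of ductal-like cells, and in 0 of 8824 and 0 of 7327 PPDO cells, which at this reduced depth allows up to 0.0340% and 0.0409% of cells with a UMI and sets no limit for the cells at full depth. Without thinning, PPDO cells with a UMI came to 1.96% and 1.89% for PKHD1, 0.765% and 0.681% for LRP2, and 0.0788% and 0.0818% for RAB17, and ductal-like cells to 94.5% and 98.8%, 85.3% and 93.6%, and 80.7% and 95.6%.

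**Figure D2:**
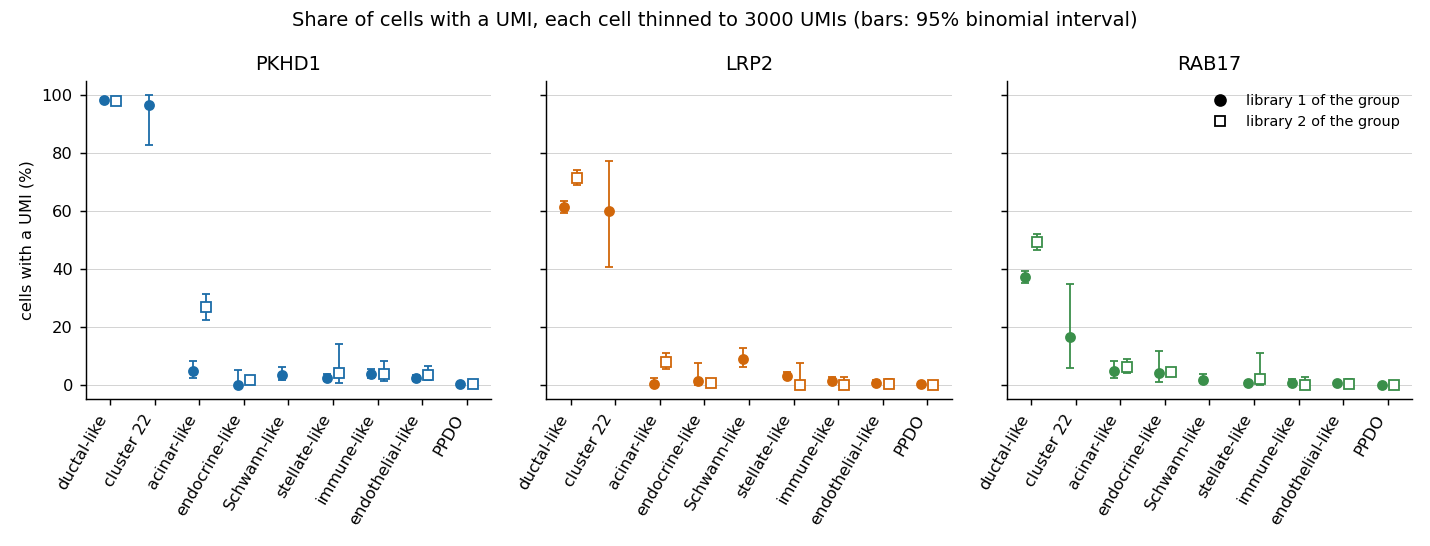
Share of cells with at least 1 UMI of each gene after every cell was thinned to 3000 UMIs, by class and library, with 95% binomial intervals. Circles are library 1 and squares library 2 of each group. PKHD1 was found in over 98% of ductal-like cells, LRP2 in 61.5% and 71.6% and RAB17 in 37.1% and 49.3%, while the PPDO points lie at or near 0.

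Nearly all duct cells held PKHD1, alone or with the others. At 3000 UMIs all 3 were found together in 23.4% and 34.2% of ductal-like cells, close to the product of the separate shares (22.4% and 34.6%), and none of them in 0.392% and 0.663%. PKHD1 was the only one found in 24.7% and 13.2% of cells. LRP2 or RAB17 without PKHD1 was rare, at 1.22% and 1.16%. At full depth the median ductal-like cell held 37 and 48 UMIs of PKHD1, 5 and 9 of LRP2, and 3 and 4 of RAB17. Within a library PKHD1 also spread widely, from 7.22 per 10000 UMIs at the 10th percentile of cells to 37.7 at the 90th in primary pancreas 1, and from 12.8 to 39.2 in primary pancreas 2. No PPDO cell held UMIs of more than 1 of the 3 genes, and only 2 and 5 PPDO cells held 2 or more PKHD1 UMIs.

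Among the ductal-like clusters the genes did not keep 1 fixed proportion. Clusters are given by number, and their levels are a description because the cells were grouped with PKHD1 among the genes used (LRP2 and RAB17 were not among them). In primary pancreas 1, cluster 0 (1285 cells, with OSGIN1 and EREG among its leading genes) had 2422 CPM of PKHD1, 365 of LRP2 and 165 of RAB17. Cluster 7 of the same library (460 cells, with DEFB115 and CFTR among its leading genes) had less PKHD1, at 2287 CPM, but more LRP2, at 538, and more RAB17, at 203. Cluster 11 (337 shallower cells, median 5874 UMIs) had 2651 CPM of PKHD1, 416 of LRP2 and 115 of RAB17. The main cluster of primary pancreas 2, cluster 1 with 1126 cells, had 2530, 525 and 228 CPM of PKHD1, LRP2 and RAB17, nearer to cluster 7 than to cluster 0 for the last 2 genes. Cluster 23, with 62 cells of the same library, was the highest for PKHD1 at 4103 CPM, while its RAB17 level of 179 CPM lay below that of cluster 1.

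Cluster 17 stood apart. It is led by TCN1, TM4SF20 and MMP7 with LGR5, a WNT target and stem cell marker of other epithelia, among its leading genes, and its cells were shallow (median 1225 and 3478 UMIs). In primary pancreas 1 PKHD1 was found in 28.2% of its 149 cells unthinned, against 96.1% to 99.9% in the other 3 main clusters of that library, and LRP2 stood at 45.2 CPM. Of these 149 cells only 34 had at least 3000 UMIs, so most of the cluster is left out of the thinned shares. Of those 34, 79.4% held a PKHD1 UMI after thinning. The PKHD1 level of 1695 CPM in this cluster thus came from a minority of its cells. The 18 cells of primary pancreas 2 had 149 CPM of PKHD1 from 11 UMIs, beside 203 CPM of LRP2 from 15 UMIs and 271 CPM of RAB17 from 20 UMIs. Leaving this cluster out moved none of the ductal-like levels by more than the spread between libraries. Its make-up depended on the settings. With the filter of primary pancreas 2 used for both libraries, a cluster of 68 cells led by TCN1, with LGR5 among its leading genes, had a median of 15553.5 UMIs. With doublets kept, a cluster of 136 cells with a median of 1205 UMIs had no LGR5 among its leading genes. The low share with PKHD1 thus cannot be assigned to the cells with LGR5.

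**Figure D3:**
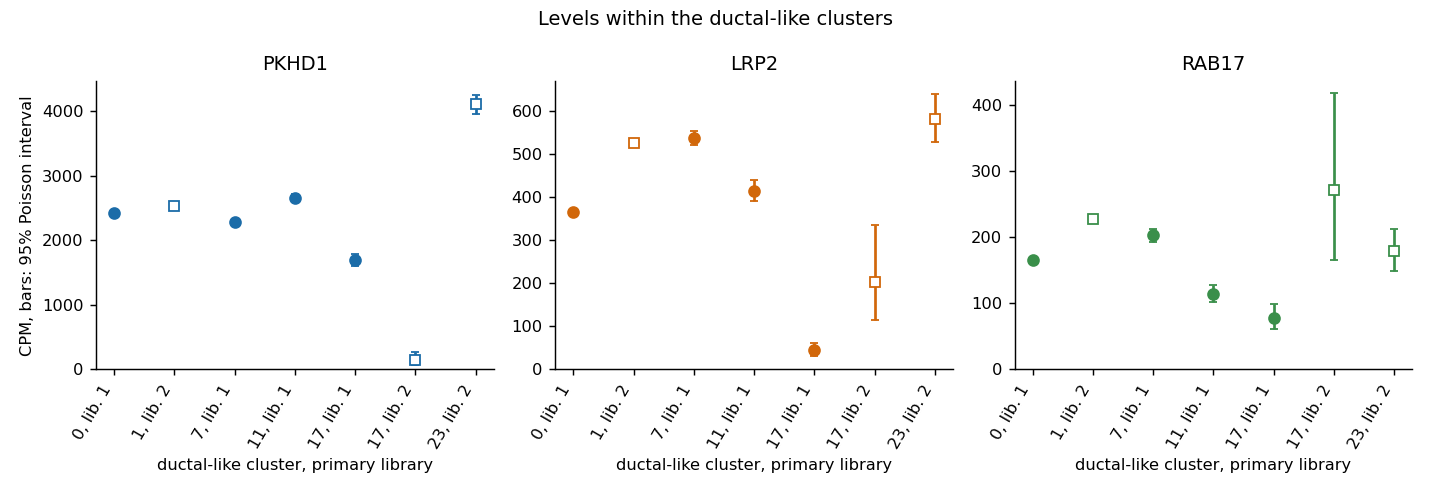
Level of each gene in CPM (linear axes from 0, a different scale for each gene) in the ductal-like clusters with at least 15 cells in a library, with 95% Poisson intervals. Circles are primary pancreas 1 and squares primary pancreas 2. Cluster 17 has the lowest LRP2 level, 45.2 CPM in primary pancreas 1, and the lowest PKHD1 level, 149 CPM in primary pancreas 2, while cluster 23 has the highest PKHD1 level at 4103 CPM.

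Outside the duct class, the order of the other classes differed between the genes. PKHD1 reached 31.0 and 64.5 CPM in acinar-like cells, the enzyme-secreting cells, which is 1.29% and 2.52% of the duct level of the same library. In endocrine-like cells it was lowest in CPM, at 1.80 and 3.42 CPM from 3 and 290 UMIs. INS took 383752 and 528177 CPM of those sums, which lowers every other gene there, and this rank was not corrected for it. Stellate-like, immune-like and endothelial-like cells had 64.4, 65.2 and 21.8 CPM in primary pancreas 1 but 6.91, 9.40 and 6.85 CPM in primary pancreas 2. In primary pancreas 1 these UMIs lay in few cells, as 9 of 710 immune-like cells held 90% of the PKHD1 UMIs of their class and 12 of 753 stellate-like cells held 94.0%. Thinned shares were accordingly low and similar, between 2.31% and 4.17% in these classes in either library, and duct transcripts in other classes were not traced to a source. Schwann-like cells of primary pancreas 1 had 77.9 CPM, the highest of the named classes below duct in that library, and 4 of 346 cells held 88.7% of these UMIs. Of the 78 PKHD1 UMIs of acinar-like cells in that library, 66.7% lay in 2 of 257 cells. Acinar-like PKHD1 was above endothelial-like PKHD1 in both libraries, but in primary pancreas 1 their intervals overlapped (24.5 to 38.6 and 19.3 to 24.6 CPM). In primary pancreas 2, 190 of the 196 acinar-like UMIs came from cluster 9, and acinar-like cluster 18 alone had 4.85 CPM, below the endothelial-like 6.85. The stellate-like and immune-like levels overlapped with each of these, so no order was set among these classes.

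Cluster 22, with 69 cells of primary pancreas 1, was left without a class because endothelial genes such as FLT1 led it beside duct genes such as SLC4A4. It had duct-like levels of PKHD1 at 2067 CPM and of LRP2 at 416 CPM, and RAB17 at 90.5 CPM. Its median depth was 2744 UMIs, and it enters none of the classes above.

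RAB17 UMIs were also counted in acinar-like and endocrine-like cells. Acinar-like cells had 16.7 and 22.4 CPM, or 9.95% and 9.89% of the duct level of the same library, and endocrine-like cells had 10.2 and 12.9 CPM, or 6.10% and 5.69%. The libraries agree within their counting intervals in both classes. Endothelial-like cells had 2.11 and 0.342 CPM, immune-like cells 4.45 and 1.34 CPM and stellate-like cells 4.04 and 4.61 CPM. In these 3 classes the counts were at most 27 UMIs per library. At 3000 UMIs, a RAB17 UMI was held by 4.80% and 6.27% of the acinar-like and by 4.17% and 4.34% of the endocrine-like cells. Among classes that are not epithelial, endothelial-like cells had 0.482% and 0.379% (median depth 8674 and 9809 UMIs, against 12445 and 39561 in endocrine-like cells). Stellate-like cells had 0.573% and 2.08% (1 of 48 cells) and immune-like cells 0.794% and 0%. Schwann-like cells had 1.56% in primary pancreas 1. Duct was the highest class for RAB17, and no order is given between acinar-like and endocrine-like cells. INS alone took 383752 and 528177 CPM of the endocrine-like sums, which lowers the CPM of every other gene there. Free RNA was not removed from these counts and no empty droplets were analysed here. Acinar-like cells also held duct markers, with KRT7 at 19.1 and 32.3 CPM, CFTR at 25.4 and 40.8 CPM and SLC4A4 at 262 and 698 CPM, and INS at 244 and 111637 CPM. In endocrine-like cells KRT7 stood at 2.40 and 3.02 CPM, CFTR at 3.61 and 1.48 CPM and SLC4A4 at 34.3 and 39.4 CPM. The part of such RNA in the RAB17 counts was not tested.

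The proportion of RAB17 to PKHD1 separated endocrine-like and acinar-like cells from the rest. In duct there were 6.99 and 8.82 RAB17 UMIs per 100 PKHD1 UMIs. Stellate-like, immune-like and Schwann-like cells of primary pancreas 1 had 6.26, 6.82 and 6.28, close to the duct proportion. Acinar-like cells had 53.8 and 34.7, and endocrine-like cells of primary pancreas 2 had 377 (interval 355 to 400). Of the RAB17 UMIs of those endocrine-like cells, 88.7% lay in cells with no PKHD1 UMI. PKHD1 UMIs were found in only 11.7% of those cells unthinned, so this share is near that of all the cells without PKHD1 and adds nothing. The INS-led clusters 2 and 3 of primary pancreas 2, made up of deep cells with medians of 41094 and 45775 UMIs, had 12.8 and 12.5 CPM of RAB17, found in 40.0% and 42.8% of cells unthinned and in 4.78% and 3.57% at 3000 UMIs. Cluster 6, led by the hormones GCG, SST and PPY, had 16.6 CPM in the same library. The proportion in endocrine-like cells was thus not that of the duct.

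The acinar-like class held 3 clusters that differed in depth and in PKHD1. Cluster 9 (362 cells of primary pancreas 2, median 4076 UMIs) was led by GP2 and CPB1 but also by INS, and had 106 CPM of PKHD1, 29.5 of LRP2 and 31.1 of RAB17. Cluster 18, led by digestive enzymes such as CPA1 and PNLIP, had 38.6 and 4.85 CPM of PKHD1 and 14.4 and 9.69 CPM of RAB17 in the 2 libraries. Cluster 19, with 149 cells of primary pancreas 1, had 19.2 CPM of PKHD1 and 20.2 CPM of RAB17. RAB17 UMIs were thus counted in all 3 acinar-like clusters. In primary pancreas 2 the acinar-like levels came mostly from cluster 9, with 190 of 196 PKHD1 UMIs and 56 of 68 RAB17 UMIs, and cluster 18 alone stood at 9.69 CPM of RAB17 against 22.4 CPM for the class.

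LRP2 was, like PKHD1, next highest in Schwann-like cells among the named classes of primary pancreas 1. The 346 Schwann-like cells of primary pancreas 1, the glia that ensheathe nerves, had 57.4 CPM, or 14.5% of the duct level, and 20.5% of them held an LRP2 UMI unthinned (9.03% at 3000 UMIs). Per 100 PKHD1 UMIs they had 73.6 LRP2 UMIs (interval 63.2 to 85.4), against 16.5 in the duct of that library. This interval covers the LRP2 count alone, and 4 of the 346 cells held 88.7% of the PKHD1 UMIs. In primary pancreas 2, endocrine-like cells at 48.3 (40.6 to 57.0) and endothelial-like cells at 45 (20.6 to 85.4) also lay above duct, at 20.5. PKHD1 UMIs were found in 8.09% of the Schwann-like cells unthinned, and the cells without one held 64.2% of the LRP2 UMIs. LRP2 UMIs were thus more frequent per cell in the few cells with PKHD1. Of the 176 LRP2 UMIs of the class, 41.5% lay in 7 of the 346 cells. Primary pancreas 2 held 1 Schwann-like cell, so this level has no replicate. Stellate-like cells had 16.0 and 9.21 CPM of LRP2, endothelial-like cells 5.27 and 3.08 CPM, and endocrine-like cells 3.61 and 1.65 CPM. In primary pancreas 1 stellate-like LRP2 thus lay above endothelial-like and endocrine-like LRP2, with 50.5% of its UMIs in 6 of 753 cells. In primary pancreas 2 the stellate-like level rested on 4 UMIs in 48 cells. Its interval of 2.51 to 23.6 CPM overlapped that of endothelial-like cells (1.41 to 5.85). At 3000 UMIs the shares of these classes were 0% and 0.379%, so they were not ordered there. Acinar-like cells at 4.37 and 17.8 CPM and immune-like cells at 13.7 and 2.01 CPM overlapped with the stellate-like and endothelial-like levels.

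**Figure D4:**
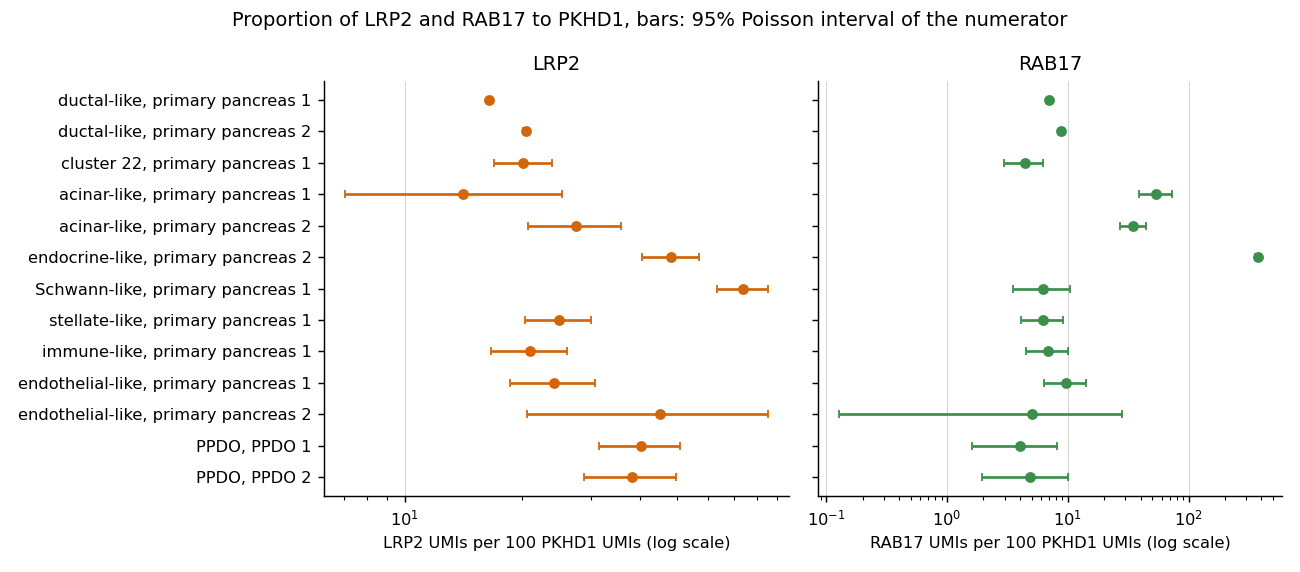
UMIs of LRP2 (left) and RAB17 (right) per 100 PKHD1 UMIs of the same cells (log axes), with 95% Poisson intervals of the LRP2 or RAB17 count, for class and library sums with at least 20 PKHD1 UMIs. Endocrine-like cells of primary pancreas 2, at 377 RAB17 UMIs per 100, and Schwann-like cells, at 73.6 LRP2 UMIs per 100, lie far above the ductal-like sums at 6.99 and 8.82 (RAB17) and at 16.5 and 20.5 (LRP2). For LRP2, endocrine-like cells of primary pancreas 2 at 48.3 and PPDO at 40.3 and 38.2 also lie above duct.

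Within PPDO the few PKHD1 and LRP2 molecules were spread over all 8 clusters. The borders of the larger PPDO clusters moved with the numerical precision of the calculation, so levels by cluster are given as ranges and no cluster is singled out. PKHD1 ranged from 0.451 to 1.00 CPM over the clusters of PPDO 1 and from 0.295 to 2.38 CPM over those of PPDO 2, where the highest rested on 11 UMIs. LRP2 ranged from 0.153 to 0.266 CPM and from 0 to 0.532 CPM. Even the highest of these values lay below the PKHD1 and LRP2 levels of acinar-like cells. Per 100 PKHD1 UMIs, PPDO had 40.3 and 38.2 LRP2 UMIs, above duct, and 3.98 and 4.86 RAB17 UMIs, whose intervals of 1.60 to 8.19 and 1.95 to 10.0 both take in the 6.99 of duct in primary pancreas 1, whereas the 8.82 of duct in primary pancreas 2 lies above that of PPDO 1 and within that of PPDO 2. On annotated features alone the LRP2 proportion of PPDO was 21.1 and 27.1, against 16.6 and 20.7 in duct. No empty droplets were analysed here, so the level that free RNA would give in PPDO was not measured.

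The genes whose levels followed the 3 most closely were named by Pearson's r of log2(CPM + 1) over 15 sums, 13 of primary classes per library and 2 of PPDO, among 10401 genes. These sums share libraries and differ in depth, so r is a description. PKHD1 was followed by KNG1 (0.987), CFTR (0.986), VEPH1 (0.983), ONECUT1 (0.971) and SCTR (0.965). Among these CFTR is the chloride and bicarbonate channel of ducts, SCTR the secretin receptor and ONECUT1 a transcription factor of ducts, and CFTR and SCTR were among the markers that named the ductal-like class. LRP2 was followed by KNG1 (0.970), TMEM200A (0.969), CFTR (0.969), ERBB4 (0.969) and PPARGC1A (0.963). RAB17 had other neighbours, SERPINA6 (0.969), HOMER2 (0.959), GNMT (0.948), FRMD1 (0.935) and CLCN4 (0.935). Between the genes themselves r was 0.958 for PKHD1 and LRP2, 0.821 for PKHD1 and RAB17, and 0.833 for LRP2 and RAB17. Of these, KNG1 stood at 669 and 755 CPM in ductal-like cells and at 0.0365 and 0.0267 CPM in PPDO, and SERPINA6 at 74.8 and 87.1 CPM and at 0.797 and 0.248 CPM. RAB17 thus shared none of its 5 nearest genes with the other two, while PKHD1 and LRP2 shared KNG1 and CFTR.

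To place the 3 genes among the genes they work with, PPDO sums were compared with ductal-like sums by edgeR over 23536 genes, of which 43.9% were called at an adjusted p under 0.05 (22.9% higher and 21.0% lower in PPDO, with a median log2 fold change of 0.01). Without PPDO 1 the number called went from 10335 to 5159, and without PPDO 2 to 4659. Fold changes use TMM factors, which set them 0.45 (log2) above ratios of plain CPM, and all 95 called genes of the lists below had the same direction on plain CPM. The lists were read against the shares over all genes, and no test of a list was run. Calls fell in both directions over all genes too, so that alone does not set a list apart.

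Of 25 genes on a list for cystic disease of kidney and ducts, 11 were lower in PPDO, 6 were higher and 8 were not called. The share called was 68.0%, against 43.9% over all genes, with a median log2 fold change of −0.19. The list also holds PKHD1L1, a paralogue of PKHD1 that is no cystic disease gene and was not called. PKD2, the cation channel mutated in dominant polycystic disease, was 33.4 and 33.7 CPM in PPDO and 157 and 159 CPM in ductal-like cells, and fell by 1.79 on the log2 scale (adjusted p = 0.0016). PKD1, its partner receptor, stood at 14.0 and 17.3 CPM against 11 and 10.4 CPM and was higher in PPDO by 1.00 (adjusted p = 0.025). The call for PKD1 was lost without PPDO 1 (adjusted p = 0.060), without PPDO 2 (0.15) and without primary pancreas 2 (0.057). DZIP1L, a ciliary base protein whose loss also gives recessive polycystic disease, had 1.74 and 0.762 CPM against 16.0 and 24.4 CPM (log2 −3.55, adjusted p = 0.0049). These groups did not overlap for any of the 3 genes, but the share of all genes without overlap was not computed. Genes of the list were called in both directions.

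The largest falls of that list were in a transcription factor, a ciliary protein and an RNA-binding protein. GLIS3, a zinc finger transcription factor, went from 1532 and 1873 CPM to 19.2 and 24.3 CPM (log2 −5.82). CYS1, the ciliary protein cystin, went from 66.6 and 61.8 CPM to 0.841 and 0.892 CPM (log2 −5.77). BICC1, an RNA-binding protein, went from 1793 and 1418 CPM to 69.5 and 53.7 CPM (log2 −4.27). Higher in PPDO were PRKCSH (log2 1.20) and SEC61B (1.10), both of the endoplasmic reticulum. Their changes were smaller, and the call for PRKCSH was lost without PPDO 1 (adjusted p = 0.051). Without PPDO 1 or without PPDO 2, 9 of the 25 genes were called.

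Genes of the primary cilium, the organelle that carries fibrocystin, were called in both directions. Of 42 genes of its machinery, 16 were lower in PPDO, 6 were higher and 20 were not called. That is 52.4% called, against 43.9% over all genes, with a median log2 fold change of −0.39. CC2D2A and MKS1 of the transition zone and IFT74 of intraflagellar transport had the largest falls, by 1.93, 1.59 and 1.92 on the log2 scale. B9D2 (log2 1.63), ARL3 (1.52), a GTPase of ciliary cargo release, and KIFAP3 (1.05), a subunit of the ciliary kinesin, were higher. Without PPDO 1 the calls went from 22 to 12 and without PPDO 2 to 11, with MKS1 lost in both (adjusted p = 0.091 and 0.088) and KIFAP3 without PPDO 2 (0.065).

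The partners of megalin were called in both directions. Of 16 genes of apical endocytosis, 6 were higher in PPDO, 3 were lower and 7 were not called. That is 56.2% called, against 43.9% over all genes, with a median log2 fold change of 0.67. CUBN, the receptor cubilin that works with megalin, was low in duct, at 14.7 and 19.3 CPM, and lower in PPDO, at 1.41 and 1.48 CPM (log2 −3.09, adjusted p = 0.0011). AMN, which anchors cubilin, had 2.88 and 2.72 CPM in PPDO and 1.15 and 2.44 CPM in ductal-like cells and was not called (adjusted p = 0.065), though it was called by DESeq2 (0.017) and without primary pancreas 2 (0.018). LRPAP1, the chaperone of LDL receptor family proteins, had 71.2 and 68.3 CPM against 119 and 109 CPM (log2 −0.27, adjusted p = 0.25), and was called without primary pancreas 2 (adjusted p = 0.036). DAB2, the adaptor that links megalin to clathrin, had 8.67 and 2.92 CPM against 1.63 and 3.42 CPM, where the groups overlapped (adjusted p = 0.084), and was called by DESeq2 (0.020) and without PPDO 2 (0.049).

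Higher in PPDO were the endosomal chloride transporter CLCN5 (47.6 and 51.1 against 18.1 and 12.4 CPM, log2 2.12) and the megalin-binding protein LRP2BP (65.0 and 66.3 against 18.2 and 25.1 CPM, log2 2.07). Lower were FCGRT, the neonatal Fc receptor that recycles albumin (log2 −1.25), and the motor MYO6 (−0.80), whose call was lost without PPDO 1 (adjusted p = 0.093) or PPDO 2 (0.11). CLCN5 and LRP2BP were thus higher in PPDO, where LRP2 itself was at 0.236 and 0.210 CPM.

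The other receptors of the family split in both directions. Of 14 genes of the LDL receptor family besides LRP2, 5 were lower in PPDO, 4 were higher and 5 were not called. The share called was 64.3%, against 43.9% over all genes, with a median log2 fold change of −0.07. LRP1 was not analysed here. LRP8, a reelin receptor, had 19.4 and 21.7 CPM in PPDO against 1.59 and 0.472 CPM (log2 4.66). LRP11 was higher by 1.28, with its call lost without PPDO 1 (adjusted p = 0.091). VLDLR, also a reelin receptor, had 15.4 and 13.1 CPM against 176 and 299.5 CPM (log2 −3.59). SORL1, a sorting receptor, went from 146 and 179 CPM to 5.91 and 5.71 CPM (log2 −4.34), and LDLRAD4 from 51.3 and 40.0 CPM to 0.412 and 0.427 CPM (log2 −6.33). Groups did not overlap for these genes, though how often that holds over all genes was not computed. Without PPDO 1 the calls of this list went from 9 to 5.

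Among RAB GTPases and effectors of epithelial traffic, genes were called in both directions. Of 31 genes tested, 8 were lower in PPDO, 7 were higher and 16 were not called. The share called was 48.4%, near the 43.9% over all genes, with a median log2 fold change of −0.52. RAB25, the epithelial GTPase of apical recycling, had 146 and 169 CPM against 41.9 and 52.4 CPM (log2 2.21, adjusted p = 0.0012). RAB11A, which marks the recycling endosome, had 149 and 186 CPM against 59.7 and 76.6 CPM (log2 1.76, adjusted p = 0.0029). RAB11B, a close relative of RAB11A added here after its values were seen, had 51.8 and 48.7 CPM against 85.2 and 88.9 CPM and was not called (adjusted p = 0.10). MYO5B, the motor of these endosomes, had 159 and 151 CPM against 199.6 and 184 CPM and was not called (adjusted p = 0.55).

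The extremes of this list were larger. RAB38, known from melanosome traffic, had 22.2 and 58.3 CPM in PPDO and 0.184 and 0.432 CPM in ductal-like cells (log2 7.59), and RAB3D, of secretory granules, was higher by 2.84. PIGR, the receptor that carries immunoglobulin A across epithelia by transcytosis, went from 43.5 and 52.0 CPM to 0.253 and 0.252 CPM (log2 −7.1, adjusted p = 0.00029). RAB15 (log2 −3.90) and RAB27A (−3.14) were also lower. Of the list genes named here, PIGR had the deepest fall.

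Genes of apical polarity and of the microvillus were called in both directions too. CRB3 was not analysed here. Of 17 polarity genes, 7 were lower in PPDO, 3 were higher and 7 were not called. That is 58.8% called, against 43.9% over all genes, with a median log2 fold change of −0.46. The lower ones included LLGL2 (log2 −2.12), STK11 (−1.80) and MPP5 of the Crumbs complex (−1.39). PARD6G, a subunit of the PAR complex, rose from 3.41 and 1.97 CPM to 134 and 145 CPM (log2 6.10). PRKCI (log2 0.63) and DLG1 (0.47) were called with small changes, lost without PPDO 1 (adjusted p = 0.12 and 0.16) or PPDO 2 (0.14 and 0.23). For DLG1 the groups overlapped on plain CPM, at 336 and 342 in PPDO and 313 and 358 in ductal-like cells. Without either PPDO library 4 of these 17 genes were called.

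Of 19 genes of the microvillus and apical surface, 8 were lower in PPDO, 5 were higher and 6 were not called. The share called was 68.4%, against 43.9% over all genes, with a median log2 fold change of −0.66. EZR, the ezrin that ties apical membrane to actin, had 341 and 344 CPM against 278 and 219 CPM (log2 0.90, adjusted p = 0.035), a call lost without PPDO 1 (0.12) or PPDO 2 (0.15). Its relative MSN rose from 1.70 and 2.16 CPM to 60.1 and 72.8 CPM (log2 5.57), the actin capping protein EPS8 from 5.64 and 7.0 CPM to 177 and 172 CPM (log2 5.25), and ANXA13 by 3.20. The apical peptidases ANPEP, at 48.0 and 52.8 CPM in duct and 0.369 and 0.522 CPM in PPDO (log2 −6.36), and DPP4 (log2 −3.87) were lower, as was ANKS4B of the brush border (−5.28). Also lower were the actin-binding genes VIL1 (16.0 and 14.8 CPM in duct, 2.13 and 1.70 CPM in PPDO, log2 −2.57) and PLS1 (23.3 and 27.3 against 4.08 and 1.77 CPM, log2 −2.67), both named after their values were seen.

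**Figure D5:**
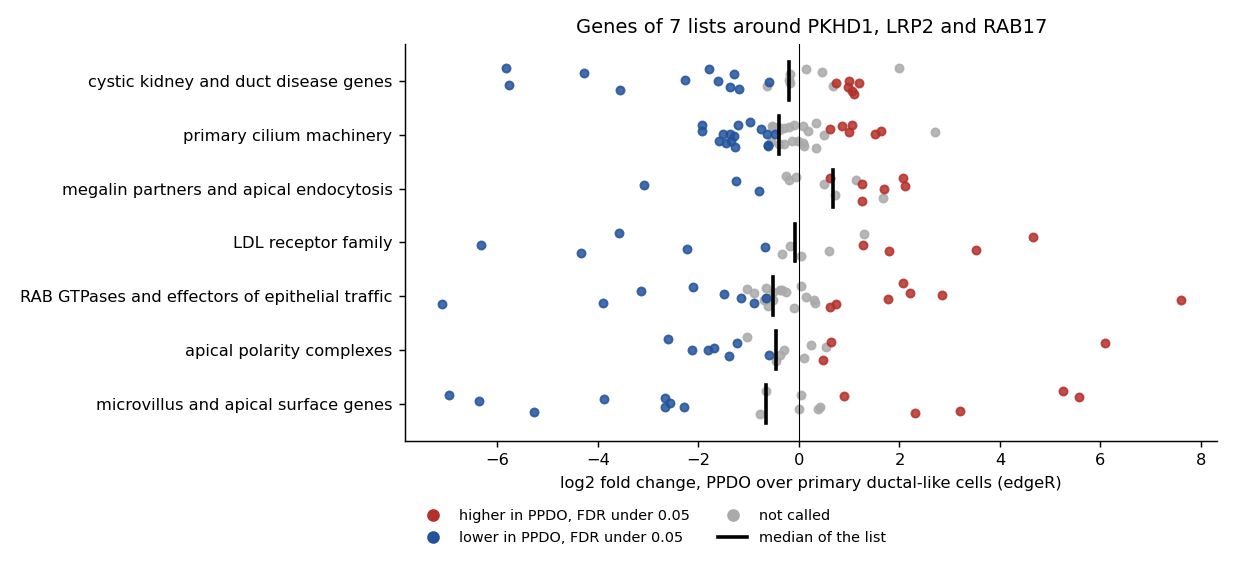
Log2 fold change of PPDO over primary ductal-like cells (edgeR) for each tested gene of the 7 lists, with 1 point per gene, coloured by direction among genes with an adjusted p under 0.05, grey where not called, and a black bar at the median of the list. The heights of points within a list carry no value. Every list has genes on both sides of 0, and medians lie between −0.66 and 0.67.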

How the data were processed

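Cells were captured by droplet 3′ single-cell RNA sequencing, and the authors deposited matrices of raw UMI counts made with Cell Ranger 7.1.0 (matrix header) on Sscrofa11.1 (submitters' processing notes) and an annotation of their own with extended 3′ ends. The feature and barcode tables deposited beside them are text. The replicate number of a primary library was assumed to match the sample numbering in the methods. Ambient RNA correction, which the study ran later, is not in these counts. UMIs of all features of a gene were summed. PPDO cells needed 1000 to 9000 features and at most 3% mitochondrial UMIs. Primary cells needed under 8% mitochondrial UMIs, under 9000 features and over 400 features (primary pancreas 1) or over 800 features and 3000 UMIs (primary pancreas 2). Scrublet thresholds of 0.25 and 0.15 removed 89 and 154 primary doublets. Scrublet was not run on PPDO cells, so doublets in PPDO were not removed.

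Primary cells were clustered in double precision in Scanpy 1.11.5 (2000 variable genes, 20 principal components, 15 neighbours, Leiden resolution 0.5, leidenalg 0.10.2) and PPDO cells separately. A cluster took the name of the marker list with the highest mean log2 fold when at least 3 markers passed a 2-fold limit, unless its leading genes came as much from another list or it was very shallow with no marker leading, and names rebuilt in this way may differ from those of the study. UMI sums per library over PPDO and over ductal-like cells were compared with edgeR 4.0.16 (R 4.3.3; TMM, filterByExpr, quasi-likelihood test, two-sided, Benjamini-Hochberg over all genes tested, call at 0.05). With 2 libraries per group, p-values rest on the spread between libraries and not on that of animals or lines alone. In the primary libraries this spread mixes animal with day, preparation and transgene, and in PPDO it mixes line with passage and donor age. On simulated data for this comparison with 200 genes changed 8-fold among 23775, edgeR recovered 100% with 9 false calls and DESeq2 1.42.0 recovered 99% with 16. Only those well-counted genes were changed, all 8-fold, whereas 43.9% of genes were called in the data. The simulation thus does not measure recovery of smaller changes, or false calls where so many genes differ. Intervals are 95% exact Poisson (CPM) or Clopper-Pearson (shares) and cover counting error only, and 0 counts allow 3. Total UMIs per library were 366263520 and 316018482 (PPDO) and 87043513 and 138928395 (primary pancreas).

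The 3 genes and the lists were chosen with earlier results of these data known. Named from each list were the 3 genes with the largest change in each direction among called genes with at least 5 CPM in the higher group, and a set of genes given whatever their values (PKD1, PKD2, DZIP1L, CUBN, AMN, LRPAP1, DAB2, RAB25, RAB11A, MYO5B and EZR). Some genes that this rule names are not reported here. Likeness was computed for genes with a symbol and at least 20 CPM in a sum, over sums of at least 20 cells, and the first 5 were named. Alternatives tried were DESeq2, DESeq2 size factors, no filter on low counts, a replicate block, thinned sums, each library left out, other clustering and cell filters, other depths of thinning and CPM by other scalings.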

Additional observations from a re-analysis of the deposited data

How the results depend on the processing

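With each cell weighted equally, PKHD1 stood at 2353 CPM in ductal-like cells and 0.605 CPM in PPDO (log2 −11.92), and RAB17 at 0.0280 CPM in PPDO. With TMM factors, PKHD1 stood at 2122 and 0.663 CPM (log2 −11.64), LRP2 at 0.260 CPM in PPDO (log2 −10.55) and RAB17 at 0.0293 CPM in PPDO (log2 −12.48). With annotated features only, LRP2 stood at 0.136 CPM in PPDO (log2 −11.71). At 5000 UMIs per cell the shares with PKHD1, LRP2 and RAB17 were 99.7%, 80.3% and 60.8% in ductal-like cells, and 0.310% (PKHD1) and 0.00576% (RAB17) in PPDO. Without thinning they were 96.7%, 89.5% and 88.2% in ductal-like cells and 1.93%, 0.723% and 0.0803% in PPDO. Deeper cells give higher shares by construction, and the cause of the other shifts was not tested. The direction held in all of these.

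Leaving out 1 library in turn gave PKHD1 2397 to 2566 CPM in ductal-like cells, 0.549 to 0.585 CPM in PPDO and log2 −12.15 to −12.05. LRP2 gave 395 to 526 CPM, 0.210 to 0.236 CPM and −11.21 to −10.79. RAB17 gave 168 to 226 CPM, 0.0233 to 0.0267 CPM and −13.15 to −12.72. Shares of ductal-like cells were 98.2% to 98.4% (PKHD1), 61.5% to 71.6% (LRP2) and 37.1% to 49.3% (RAB17), and those of PPDO cells 0.15% to 0.17%, 0.0955% to 0.147% and 0 to 0%. Genes called ranged from 4659 (without PPDO 2) to 10596, against 10335. List calls ranged from 9 to 18 (cystic disease), 11 to 25 (cilium), 7 to 11 (megalin partners), 5 to 10 (LDL receptor family), 10 to 18 (RAB), 4 to 12 (polarity) and 11 to 13 (microvillus). A fit without 1 PPDO or primary library assumes that the lone one varies like the other group, and has fewer degrees of freedom.

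The replicate numbers did not pair the libraries (correlation of deviations −0.01 over 23536 genes), and the replicate block called 8739 genes and ended the call for DLG1 alone among the named genes (adjusted p = 0.10). DESeq2 called 11057 genes, the fit without a filter 10160 and thinned sums 8942. MYO5B went from 0.14 to −0.054 (log2) without primary pancreas 2 and to 0.29 without primary pancreas 1, called in no case. DLG1 also lost its call with thinned sums (adjusted p = 0.071). Leaving out the shallow cluster 17, an alternative chosen after seeing the data, other resolutions, filters and kept doublets moved no level by more than the spread between libraries. Counts of 7 UMIs limit what can be said of RAB17 in PPDO.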
